A study of Mus musculus with 10 samples.

Results

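Flk1-positive, doxycycline-treated embryoid bodies were compared with untreated embryoid bodies at day 2.5 across all genes, using 4 of the 10 libraries of the series. Members were the 14548 genes that passed a filter on low counts, out of 23429 rows in the count table. Embryoid bodies are aggregates of differentiating embryonic stem cells, here of the mouse line iHA-Etv2, whose name stands for an inducible, HA-tagged copy of the transcription factor Etv2. The Flk1-positive group had 2 libraries (treatment Dox, flk1pos TRUE, day 2.5), and the control group had 2 libraries without doxycycline that were not labelled Flk1-positive (day 2.5). A further group of 2 libraries from day 2.5, with doxycycline but without the Flk1 label, is given beside them. The other 4 libraries (day 2, with and without doxycycline) entered the filter, the scaling and the shared estimate of spread, but not the contrast. Every group came from the same inducible line, so untreated cells carried the transgene too. How Flk1-positive cells were obtained, and whether the other samples were sorted, are not stated in the labels. Doxycycline, Flk1 status and any handling that goes with obtaining Flk1-positive cells therefore cannot be told apart in this contrast. The labels also do not say that replicates were separate cultures, so p-values measure the spread between these libraries, which may be technical.

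Etv2 is an ETS-family transcription factor that acts at the top of the programme that makes blood and endothelial cells from mesoderm. Flk1 is the product of Kdr, the main receptor for the growth factor VEGF-A, and marks mesoderm that can give rise to both lineages. Mesoderm itself forms at the primitive streak, where epiblast cells exposed to Nodal, Wnt and FGF signals lose pluripotency and switch on genes such as Mixl1 and Eomes. Tal1, Lmo2, Gata2, Fli1 and the SoxF factor Sox18 lie downstream of Etv2 in blood and vessel formation.

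Total counts in the 4 compared libraries were 23042226 and 18074070 for Flk1-positive and 23326111 and 24710072 for untreated samples, and all 10 libraries lay between 18074070 and 36068329. A gene with 0 counts in a compared library could be present at up to 0.124 to 0.159 counts-per-million (CPM), the level of 3 counts. No replicate libraries were identical, and the compared pairs differed beyond counting error, at 7.47 (Flk1-positive) and 9.65 (untreated) for the chi-square averaged over genes. Differences between the Flk1-positive replicates followed the GC content of the genes, with a rank correlation across genes of 0.368, against 0.024 for the untreated pair. The doxycycline-treated replicates of day 2 lay furthest apart, at 32.04, with rank correlations of 0.317 with GC content and -0.454 with gene length, and leaving out either raised the genes called in the comparison from 8040 to 9229 or 9226. CPM values below use total counts scaled by the TMM method, and fold changes are on the log2 scale ± standard error (SE), Flk1-positive minus untreated, from edgeR's quasi-likelihood model with Benjamini-Hochberg adjusted p-values.

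The libraries carried the labelled signals. Etv2 (GRCm38 chr7:30633616-30635852, minus strand) was at 323 and 303 CPM in the Flk1-positive libraries, 272 and 255 CPM in the doxycycline-treated libraries and 6.57 and 7.500 CPM in the untreated libraries. The log2 difference from untreated samples was 5.47 ± 0.14 (adjusted p = 1.1e-13), and induced and endogenous Etv2 reads cannot be separated in these counts. Kdr (GRCm38 chr5:75932827-75978458, minus strand) was at 1008 and 986 CPM in Flk1-positive, 405 and 433 CPM in doxycycline-treated and 7.05 and 7.42 CPM in untreated libraries, a log2 difference from untreated of 7.11 ± 0.18. Both genes separated the 3 groups without overlap, and since Flk1 defined the group, the Kdr value checks the label and is not a finding. Between Flk1-positive and doxycycline-treated libraries the log2 differences were 0.25 ± 0.11 for Etv2 (adjusted p = 0.076) and 1.25 ± 0.14 for Kdr (adjusted p = 5.8e-06).

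The 2 groups stood far apart. The root mean square log2 difference in CPM over all genes tested was 1.29 to 1.31 between a Flk1-positive and an untreated library, against 0.432 between the Flk1-positive replicates and 0.460 between the untreated replicates. The doxycycline-treated libraries lay 0.880 to 0.899 from the untreated libraries and 0.839 to 0.902 from the Flk1-positive libraries. These distances describe the libraries and carry no test.

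**Figure D1:**
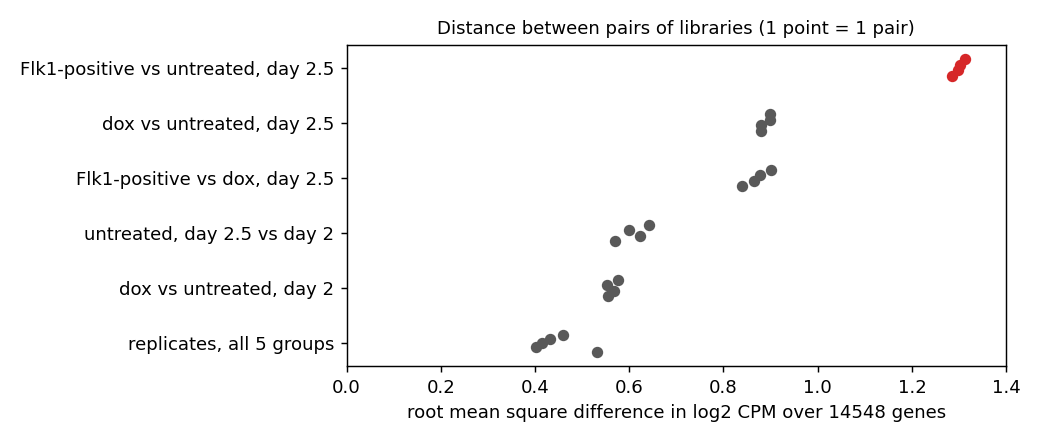
Root mean square log2 difference in CPM over all genes tested, for pairs of libraries, with 1 point per pair and 1 row per kind of pair (replicates of all 5 groups, doxycycline against untreated at each day, untreated day 2.5 against day 2, and the pairs with Flk1-positive libraries). Pairs of a Flk1-positive and an untreated library sit at 1.29 to 1.31 (red), above the replicate pairs, which lie between 0.403 and 0.532.

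Of the 14548 genes tested, 8040 (55.3%) differed at an adjusted p under 0.05 (edgeR), 4167 higher (28.6%) and 3873 lower (26.6%) in Flk1-positive samples. At an unadjusted p under 0.05 there were 8746. In all but 2 of the 8040 genes the 4 libraries did not overlap between groups. The calls were made on these same libraries, so this separation follows largely from the selection and adds no support. The share over all genes tested is not given. The median log2 fold change over all genes tested was 0.01, and the median absolute log2 fold change was 0.51. A test against a change of 2-fold (glmTreat) called 1159 genes higher (7.97%) and 731 lower (5.02%). In bulk samples, a change in the share of cells that express a gene and a change in its RNA per cell cannot be told apart.

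Large rises outnumbered large falls. Among called genes, 2063 were higher and 1282 lower by an estimated fold above 2, and 944 against 575 by a fold above 4. Above 8-fold there were 457 higher and 282 lower genes, above 16-fold 245 and 130, and above 32-fold 128 and 51. In these counts, 300 genes with 0 to 3 counts in a group enter at their count ratio or, at 0 counts, at a lower bound against 3 counts. Among genes at 5 CPM or more in the higher group, the same count above 32-fold was 80 higher and 28 lower. In all, 115 genes, called or not, went from a mean under 1 CPM untreated to at least 5 CPM in Flk1-positive samples, and 62 went the other way.

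**Figure D2:**
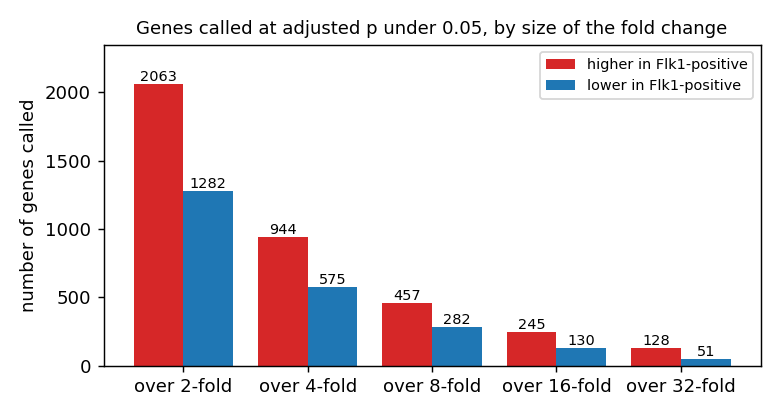
Number of genes higher (adjusted p under 0.05) and lower in Flk1-positive than untreated samples with an estimated fold above 2, 4, 8, 16 and 32 (bars). Higher genes outnumber lower genes in every class, 2063 to 1282 above 2-fold and 128 to 51 above 32-fold.

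Genes called higher by over 2-fold took 8.17% and 7.91% of all counts in the Flk1-positive libraries, 4.44% and 4.41% in the doxycycline-treated libraries and 1.74% and 1.71% in the untreated libraries. Genes called lower by over 2-fold took 1.52% and 1.51% in Flk1-positive, 3.07% and 3.07% in doxycycline-treated and 5.05% and 5.18% in untreated libraries. These genes were chosen on the contrast itself, so the shares describe their weight in the RNA and are not tested.

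**Figure D3:**
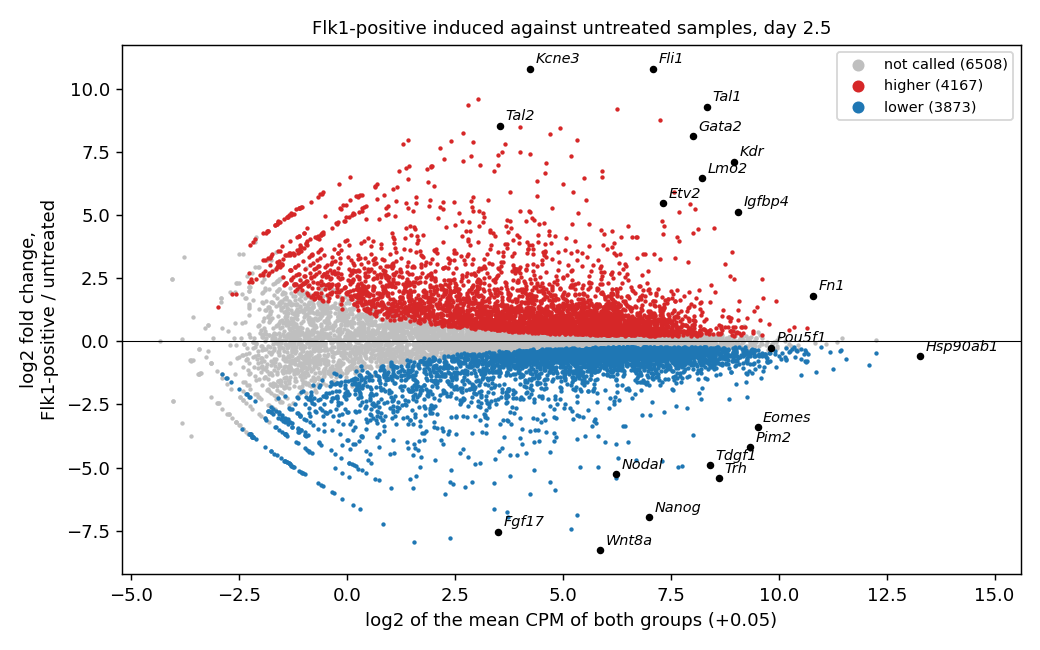
Log2 fold change (Flk1-positive over untreated) against mean log2 CPM for every gene tested, with genes at 0 to 3 counts in a group drawn at their bound or count ratio. Red and blue points mark genes called higher and lower, 4167 and 3873, grey points the 6508 not called, and the named points include Fli1 at 10.79 ± 0.27, Kdr at 7.11 ± 0.18 and Nanog at -6.96 ± 0.17.

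The largest rises included regulators and products of blood and vessel cells. The 10 largest, ranked by fitted fold change among genes of at least 5 CPM, were Tal2, Il9r, Ctse, Fli1, Mpo, Icam2, Kcne3, Samsn1, Tal1 and Myct1. Fli1, an ETS factor of endothelial and megakaryocytic cells, was at 246 and 298 CPM in Flk1-positive, 90.9 and 96.5 CPM in doxycycline-treated and 0.218 and 0.0829 CPM in untreated libraries (log2 fold change 10.79 ± 0.27, adjusted p = 8.9e-14). Tal1, the basic helix-loop-helix factor required for all blood formation, was at 662 and 640.3 CPM in Flk1-positive, 177 and 190.4 CPM in doxycycline-treated and 0.827 and 1.24 CPM in untreated libraries (log2 fold change 9.28 ± 0.17, adjusted p = 5e-15). For both genes the doxycycline-treated libraries lay between the other groups, and no groups overlapped.

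Several of these genes had no read in the untreated day 2.5 libraries. Tal2, a close relative of Tal1, had 1015 counts over the Flk1-positive libraries (26.8 and 19.4 CPM) and 0 over the untreated libraries, so it was at least 370-fold higher. Il9r, a cytokine receptor, had 650 counts against 0 (at least 237-fold). Ctse, the protease cathepsin E, had 408 counts against 0 (at least 149-fold), and Mpo, the myeloperoxidase of myeloid granules, had 332 against 0 (at least 121-fold). Icam2, an endothelial adhesion molecule, had 328 counts against 0 (at least 120-fold), and Samsn1, an adaptor of lymphoid and myeloid cells, had 308 against 0 (at least 112-fold). A single untreated count was seen for Kcne3, a potassium channel subunit, against 1616 in Flk1-positive samples, which puts the ratio at 1767 with a 95% counting interval from 317 to 69833. Myct1 likewise had 1 untreated count against 701, and its ratio of 766 had an interval from 137 to 30317. The bounds use 3 counts over the untreated group, and bounds and intervals cover counting error only.

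Sequences in front of the start sites show which of the motifs bound by ETS, forkhead-ETS, GATA and bHLH factors lie close to the most induced genes. RefSeq windows of the 250 bases before the outermost start of each gene (GRCm38.p6) were found for 7 of the 10 largest rises. Of the 7, 4 hold a searched motif, and the share of all windows with any of the 4 motifs is not given. The windows with a motif are printed 5′ to 3′ on the strand of the gene, with motif matches in capitals. Amot was added as the gene with a forkhead-ETS match among the largest gains in CPM.
Kcne3 (chr7:100176420-100176669, plus strand): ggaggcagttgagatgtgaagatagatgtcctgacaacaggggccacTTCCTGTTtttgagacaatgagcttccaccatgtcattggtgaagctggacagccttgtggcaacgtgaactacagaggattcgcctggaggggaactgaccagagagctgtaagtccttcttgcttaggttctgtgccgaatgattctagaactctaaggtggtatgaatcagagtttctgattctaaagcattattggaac
Amot (chrX:145487640-145487889, minus strand): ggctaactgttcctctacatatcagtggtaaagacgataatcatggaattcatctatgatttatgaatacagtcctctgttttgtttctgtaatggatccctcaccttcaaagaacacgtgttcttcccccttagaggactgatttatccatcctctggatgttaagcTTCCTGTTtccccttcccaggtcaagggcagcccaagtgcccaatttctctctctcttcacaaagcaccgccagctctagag
Tal1 (chr4:115056176-115056425, plus strand): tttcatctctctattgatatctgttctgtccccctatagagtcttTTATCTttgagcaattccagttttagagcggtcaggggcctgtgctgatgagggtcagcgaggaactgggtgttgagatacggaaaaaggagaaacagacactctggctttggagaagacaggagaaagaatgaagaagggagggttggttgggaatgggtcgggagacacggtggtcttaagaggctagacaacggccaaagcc
Il9r (chr11:32200280-32200529, minus strand): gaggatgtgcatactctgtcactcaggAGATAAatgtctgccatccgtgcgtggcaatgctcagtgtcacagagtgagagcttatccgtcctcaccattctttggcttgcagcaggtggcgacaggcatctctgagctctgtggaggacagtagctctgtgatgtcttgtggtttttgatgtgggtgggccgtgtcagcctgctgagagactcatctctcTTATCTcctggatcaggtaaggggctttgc
Myct1 (chr10:5593478-5593727, plus strand): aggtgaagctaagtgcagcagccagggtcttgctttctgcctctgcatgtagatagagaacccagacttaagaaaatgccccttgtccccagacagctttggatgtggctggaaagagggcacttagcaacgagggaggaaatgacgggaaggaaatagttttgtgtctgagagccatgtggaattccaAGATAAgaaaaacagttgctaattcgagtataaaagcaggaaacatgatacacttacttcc
The capitals mark the forkhead-ETS composite AACAGGAA in Kcne3 and Amot, and the GATA motif AGATAA in Tal1, Il9r (2 matches) and Myct1, as these letters or their reverse complement. The windows of Etv2, Kdr, Tal2, Mpo and Samsn1 hold none of the 4 motifs searched.

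The share of windows with a motif was compared among gene classes as a description. The composite AACAGGAA was in 2.95% of 848 windows of genes higher by over 2-fold, 1.13% of 531 windows of genes lower by over 2-fold and 1.70% of all 11225 windows. The GATA motif AGATAA was in 7.90%, 4.71% and 5.51%, and the E-box CAGCTG in 12.7%, 11.5% and 11.7%. The ETS motif CCGGAAG was in 6.49%, 4.90% and 13.0%, so both classes lay below the share of all windows. Among all called genes, whatever their fold, it was in 10.4% of 3209 windows of higher genes and 15.3% of 2983 windows of lower genes, the latter above the share of all windows. Both strands were searched, and no motif contains another. A match is a run of letters only and says nothing of binding.

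The largest falls included genes known from the streak and from pluripotent cells. Wnt8a, a Wnt ligand of the early streak, was at 0.496 and 0.212 CPM in Flk1-positive, 17.4 and 16.8 CPM in doxycycline-treated and 104 and 127 CPM in untreated libraries (log2 fold change -8.27 ± 0.22, adjusted p = 1.9e-13). Nanog, a core pluripotency factor, was at 1.45 and 2.70 CPM in Flk1-positive, 73.5 and 73.4 CPM in doxycycline-treated and 262 and 242 CPM in untreated libraries (log2 fold change -6.96 ± 0.17, adjusted p = 5.9e-14). Neither gene's groups overlapped, and the doxycycline-treated libraries lay between the others. Fgf17, an FGF ligand of the streak, fell by 7.54 ± 0.37, and the ubiquitin ligase gene Trim67 fell by 7.41 ± 0.23 on the log2 scale. Lefty2 and Lefty1, secreted inhibitors of Nodal, fell (log2 fold changes -6.89 ± 0.25 and -6.76 ± 0.36). Pcdh8, a protocadherin of newly formed mesoderm, fell by 6.94 ± 0.28, and Eras, a Ras-like GTPase of embryonic stem cells, fell by 6.63 ± 0.38. The posterior homeobox gene Cdx1 had 1 count against 268, so the ratio of untreated to Flk1-positive was 245 with an interval from 43.6 to 9717. Cabp7, a calcium-binding protein gene, had 2 counts against 487, and its ratio was 223 with an interval from 61.3 to 1844.

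**Figure D4:**
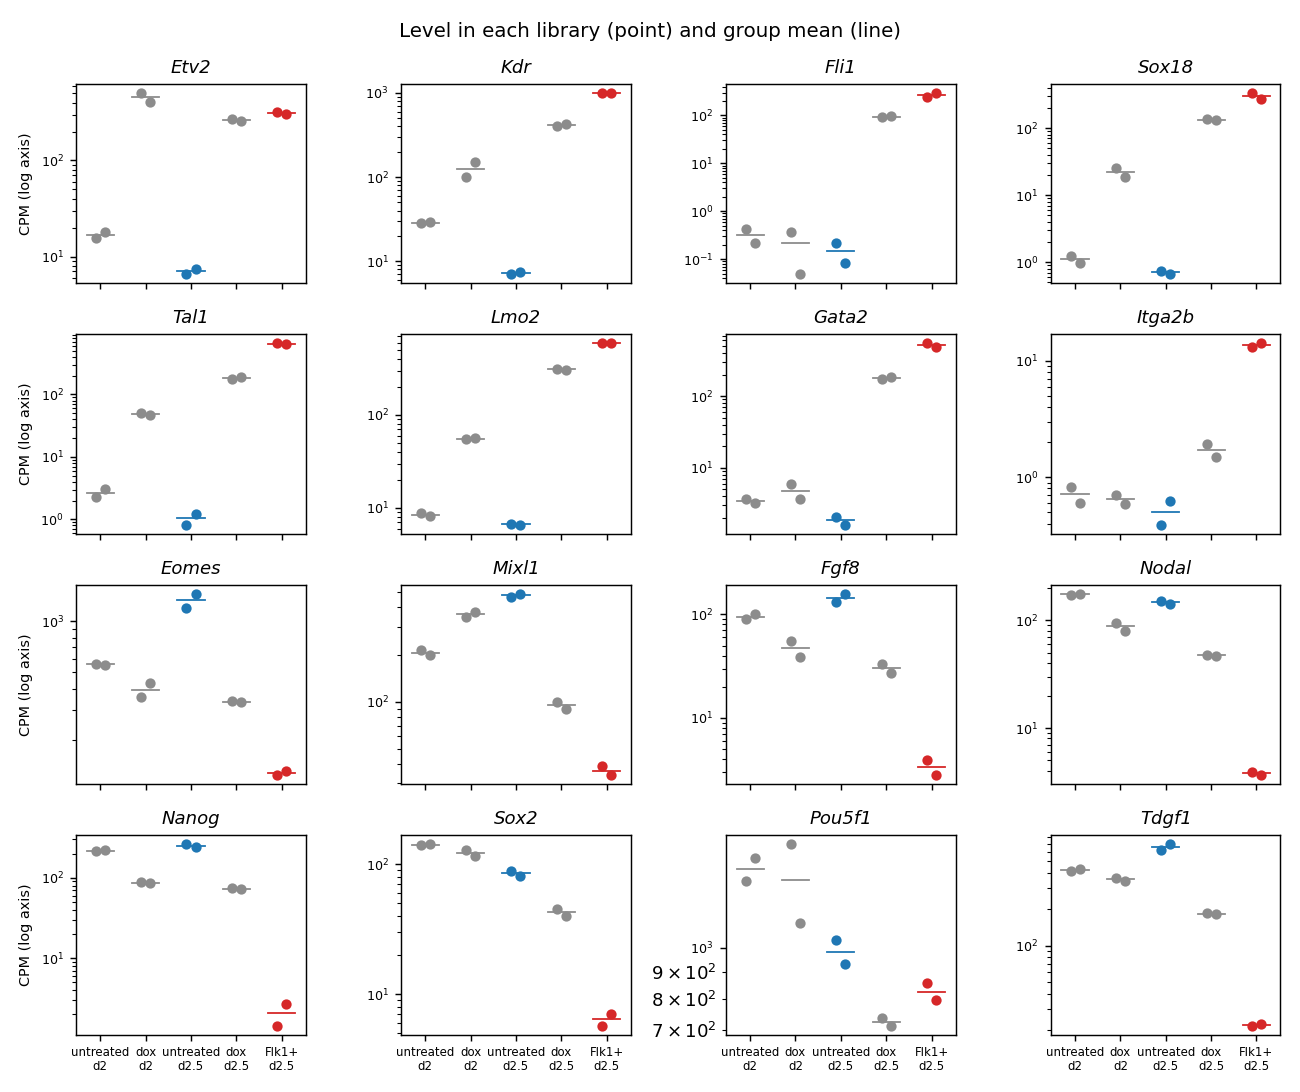
CPM of 16 genes in every library (points) with the group mean (lines) on log axes, in 5 groups from untreated and doxycycline-treated at day 2 to untreated, doxycycline-treated and Flk1-positive at day 2.5. Among the day 2.5 groups Fli1 and Tal1 climb from untreated to Flk1-positive, Nodal and Nanog descend, and Pou5f1 stays between 713 and 1033 CPM.

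Endothelial transcription factors were higher almost throughout. Of 18 tested, leaving out the induced Etv2, 14 rose and 1 fell, with a median log2 fold change of 2.78 against 0.01 for all genes (none fell without Flk1-positive replicate 1 or either untreated replicate). These counts, and those of the lists below, cover members that passed the filter on low counts, not whole lists. They stand beside 28.6% higher and 26.6% lower of all genes tested. Sox18, a SoxF factor of vessel identity, was at 338 and 269 CPM in Flk1-positive, 138 and 131 CPM in doxycycline-treated and 0.740 and 0.663 CPM in untreated libraries (log2 fold change 8.75 ± 0.22). Hhex, a homeobox factor of the haemangioblast, rose from 9.88 and 11.1 CPM untreated to 182 and 185 CPM (log2 fold change 4.13 ± 0.11), and the ETS factor Elk3 from 8.96 and 9.07 CPM to 138 and 132 CPM (log2 fold change 3.91 ± 0.12). Elk3 was at 135 and 144 CPM in the doxycycline-treated libraries, and its difference between those and Flk1-positive samples was -0.05 ± 0.10 (adjusted p = 0.75). Prox1, the lymphatic regulator, was at 6.90 and 5.51 CPM against 7.92 and 9.57 CPM untreated (log2 fold change -0.49 ± 0.23, adjusted p = 0.080) and was called lower in 6 of 21 alternative fits. Epas1, the hypoxia factor of endothelium, was not called either (log2 fold change 0.33 ± 0.25, adjusted p = 0.29).

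Receptors on the endothelial surface rose in 19 of 20 cases, leaving out Kdr because Flk1 defined the group, with a median log2 fold change of 3.78 and no member lower. Without Kdr, the summed level of the list was 1620.2 and 1718 CPM in the Flk1-positive, 791 and 843 CPM in the doxycycline-treated and 162 and 165 CPM in the untreated libraries. Tek, the angiopoietin receptor Tie2, was at 73.1 and 75.3 CPM in Flk1-positive, 23.9 and 28.2 CPM in doxycycline-treated and 1.13 and 1.33 CPM in untreated libraries (log2 fold change 5.91 ± 0.22). Flt4, the lymphatic VEGF receptor, rose from 24.4 and 19.5 to 398 and 359.9 CPM (log2 fold change 4.11 ± 0.13). Nrp2, a co-receptor for VEGF and semaphorins, rose from 48.3 and 47.5 to 436 and 415 CPM (log2 fold change 3.15 ± 0.13), and Eng, an endothelial co-receptor for BMP ligands, from 19.8 and 18.9 to 226 and 196 CPM (log2 fold change 3.45 ± 0.10). Plvap, a protein of mature fenestrated vessels, was at 13.5 and 12.2 CPM against 13.0 and 12.8 CPM untreated (log2 fold change 0.00 ± 0.15, adjusted p = 0.99).

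Junction and effector genes of vessels rose in most cases, while some classical markers were not called. Of 22 tested, 18 rose and 1 (Jam2) fell, with a median log2 fold change of 4.12, or 3.90 with genes at 0 to 3 counts set to their bound or ratio. Esam, an endothelial adhesion molecule of tight junctions, was at 83.0 and 77.6 CPM in Flk1-positive, 12.0 and 11.4 CPM in doxycycline-treated and 0.392 and 0.249 CPM in untreated libraries (log2 fold change 7.96 ± 0.22). Arhgap31, a GTPase-activating protein, rose from 1.52 and 1.08 to 120.4 and 116 CPM (log2 fold change 6.51 ± 0.17). The secreted vessel factor Egfl7 rose by 3.98 ± 0.12 and the GTPase regulator Arap3 by 4.26 ± 0.12 on the log2 scale. Pecam1, the CD31 antigen of endothelial cells and also of embryonic stem cells, was at 5.29 and 5.51 CPM in Flk1-positive and 6.18 and 4.48 CPM in untreated libraries (log2 fold change 0.02 ± 0.24, adjusted p = 0.95). Jam3, whose exons overlap another gene over 36.2% of their length, was also not called (log2 fold change 0.02 ± 0.13).

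Transcription factors of blood formation rose in 18 of 21 cases, and 1 (Bcl11a) fell, with a median log2 fold change of 3.39. Gata2, a factor of blood stem and progenitor cells, was at 549 and 479 CPM in Flk1-positive, 176 and 184 CPM in doxycycline-treated and 2.09 and 1.62 CPM in untreated libraries (log2 fold change 8.12 ± 0.19). Lmo2, the adaptor that joins Tal1 and GATA factors, was at 589.5 and 590.3 CPM in Flk1-positive, 310.2 and 306 CPM in doxycycline-treated and 6.74 and 6.63 CPM in untreated libraries (log2 fold change 6.46 ± 0.11). Zfpm1, the GATA cofactor FOG1, rose from 11.1 and 11.6 to 219 and 176 CPM (log2 fold change 4.11 ± 0.13). Cbfb, the partner of Runx factors, was not called (log2 fold change 0.17 ± 0.09, adjusted p = 0.14; higher in 5 of 21 alternatives), and Klf1, the regulator of adult globin genes, stayed under 1 CPM in all 4 libraries.

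Surface antigens, receptors and products of blood cells were mostly too low to test. Of 20 such genes, from early blood to mature lineages, 7 had enough counts to test, 2 of them higher and 2 lower. The globin genes Hba-x, Hbb-y and Hba-a1, and also Hemgn, Gp9, Csf1r and Treml1, had 0 counts in all 4 libraries. Itga2b, the CD41 antigen of early blood and megakaryocytes, was at 13.2 and 14.1 CPM in Flk1-positive, 1.92 and 1.502 CPM in doxycycline-treated and 0.392 and 0.622 CPM in untreated libraries (log2 fold change 4.74 ± 0.34), and the platelet receptor gene Gp1ba rose by 3.28 ± 0.68. Kit, the stem cell factor receptor, fell from 49.5 and 48.8 to 29.5 and 26.5 CPM (log2 fold change -0.81 ± 0.12), and the hyaluronan receptor gene Cd44 fell from 9.79 and 10.1 to 2.85 and 2.60 CPM (log2 fold change -1.86 ± 0.24). Alas2, the erythroid haem enzyme, and Epor, the erythropoietin receptor, were not called (log2 0.51 ± 0.52 and -0.11 ± 0.25).

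Signalling genes best known from leukocytes rose in 9 of 11 tested cases, with 1 lower and a median of 3.38. Lcp1, the actin-bundling protein L-plastin, was at 120.3 and 121 CPM in Flk1-positive, 95.7 and 107 CPM in doxycycline-treated and 11.5 and 7.83 CPM in untreated libraries (log2 fold change 3.64 ± 0.16). Rcsd1 rose from 0.0870 and 0.0829 to 32.6 and 31.4 CPM (log2 fold change 8.48 ± 0.32), and Lax1, an adaptor of lymphocyte signalling, from 0 and 0.373 to 21.8 and 20.3 CPM (log2 fold change 6.75 ± 0.45). Coro1a, an actin regulator of leukocytes, rose by 2.98 ± 0.17. The defining leukocyte antigen Ptprc (CD45) had 0 counts over the Flk1-positive and 2 over the untreated libraries.

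Primitive streak genes were lower in 19 of 22 tested cases and higher in none, with a median log2 fold change of -4.61. Mixl1, a homeobox factor of the streak, was at 38.6 and 33.9 CPM in Flk1-positive, 99.5 and 89.5 CPM in doxycycline-treated and 469 and 489.6 CPM in untreated libraries (log2 fold change -3.72 ± 0.11). Eomes, a T-box factor of streak and endoderm, was at 123 and 130.2 CPM in Flk1-positive, 336 and 333 CPM in doxycycline-treated and 1204 and 1455 CPM in untreated libraries (log2 fold change -3.39 ± 0.12). Fst, which binds activin, fell from 422 and 417 to 15.9 and 11.2 CPM (log2 fold change -4.94 ± 0.13), and Sp5, a direct Wnt target, from 179 and 223 to 8.96 and 6.20 CPM (log2 fold change -4.71 ± 0.16). Lhx1, a factor of anterior mesendoderm, was at 33.4 and 29.5 CPM in Flk1-positive, 7.44 and 6.99 CPM in doxycycline-treated and 37.2 and 37.5 CPM in untreated libraries, with no call against untreated (log2 fold change -0.25 ± 0.13, adjusted p = 0.12), though it was called lower once trends with gene length and GC content were removed. Against doxycycline-treated samples Lhx1 was higher in Flk1-positive samples (2.12 ± 0.14, adjusted p = 4.2e-08), so the group between the others in Kdr had the lowest Lhx1.

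Other mesoderm lists moved less uniformly. Of 12 paraxial mesoderm genes, which mark the future somites, 2 rose and 7 fell (median -0.97). The Notch ligand gene Dll3 fell by 2.46 ± 0.19 and the Wnt agonist Rspo3 fell by 0.91 ± 0.17, while Lfng, a modifier of Notch receptors, rose by 1.85 ± 0.24. Cyp26a1, which degrades retinoic acid, was at 60.4 and 58.9 CPM in Flk1-positive, 9.64 and 11.1 CPM in doxycycline-treated and 24.5 and 26.5 CPM in untreated libraries (log2 fold change 1.23 ± 0.13). Its doxycycline-treated libraries lay below both other groups, and the log2 difference of Flk1-positive from doxycycline-treated samples was 2.52 ± 0.14 (adjusted p = 5.1e-09).

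The list of cardiac and lateral mesoderm had 2 members higher and 7 lower of 17 (median -0.79), and the count that fell was 4 without Flk1-positive replicate 2 or without untreated replicate 1, with medians of -0.47 and -0.41. Tbx20, a T-box factor of heart and lateral mesoderm, rose from 3.48 and 3.85 to 41.6 and 47.1 CPM (log2 fold change 3.59 ± 0.19), and Gata6 from 20.02 and 15.9 to 81.8 and 79.1 CPM (log2 fold change 2.16 ± 0.15). Pdgfra, the receptor that marks paraxial and cardiac mesoderm, was at 3.76 and 1.54 CPM in Flk1-positive, 6.84 and 5.20 CPM in doxycycline-treated and 27.7 and 33.4 CPM in untreated libraries (log2 fold change -3.48 ± 0.27). Msx2 fell by 1.88 ± 0.23 and the cardiac actin gene Actc1 fell by 2.66 ± 0.35 on the log2 scale, and Gata4 was not called (log2 fold change -0.22 ± 0.19, adjusted p = 0.36).

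Pluripotency genes were split, with 5 of 22 higher and 10 lower and a median of -0.23. By over 2-fold, 2 were called higher and 7 lower, and log2 fold changes in the list reached 2.41. The members named were taken by adjusted p and level, and none of them is among the risers. That median was -0.43 without Flk1-positive replicate 1, -0.11 and -0.39 without untreated replicates 1 and 2, and -0.14 with total library sizes. Pou5f1, which encodes Oct4, was at 858 and 796 CPM in Flk1-positive, 736 and 713 CPM in doxycycline-treated and 1033 and 933 CPM in untreated libraries (log2 fold change -0.25 ± 0.13, adjusted p = 0.10), and 6 of 21 alternative fits called it lower. Sox2, its partner factor, was at 5.74 and 7.05 CPM in Flk1-positive, 45.2 and 39.8 CPM in doxycycline-treated and 88.8 and 80.6 CPM in untreated libraries (log2 fold change -3.74 ± 0.13). Klf2, a factor of naive pluripotency and later of endothelium under flow, fell from 13.1 and 12.9 to 0.0413 and 0.477 CPM (log2 fold change -5.77 ± 0.36) and was at 12.0 and 13.3 CPM in the doxycycline-treated libraries. The RNA-binding protein genes L1td1 and Lin28a fell (log2 fold changes -2.22 ± 0.10 and -1.27 ± 0.08), and Utf1 was not called (log2 fold change -0.02 ± 0.12). Of 15 formative epiblast genes, 13 fell and 2 rose (median -1.72). Etv5, an ETS factor of the PEA3 group, was at 12.4 and 12.2 CPM in Flk1-positive, 106 and 107 CPM in doxycycline-treated and 406 and 376 CPM in untreated libraries (log2 fold change -4.99 ± 0.10), and its relative Etv4 fell by 4.99 ± 0.13. Zic2, Otx2 and the ligand gene Fgf5, all of the epiblast, fell (log2 fold changes -2.62 ± 0.09, -2.30 ± 0.10 and -2.10 ± 0.09).

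**Figure D5:**
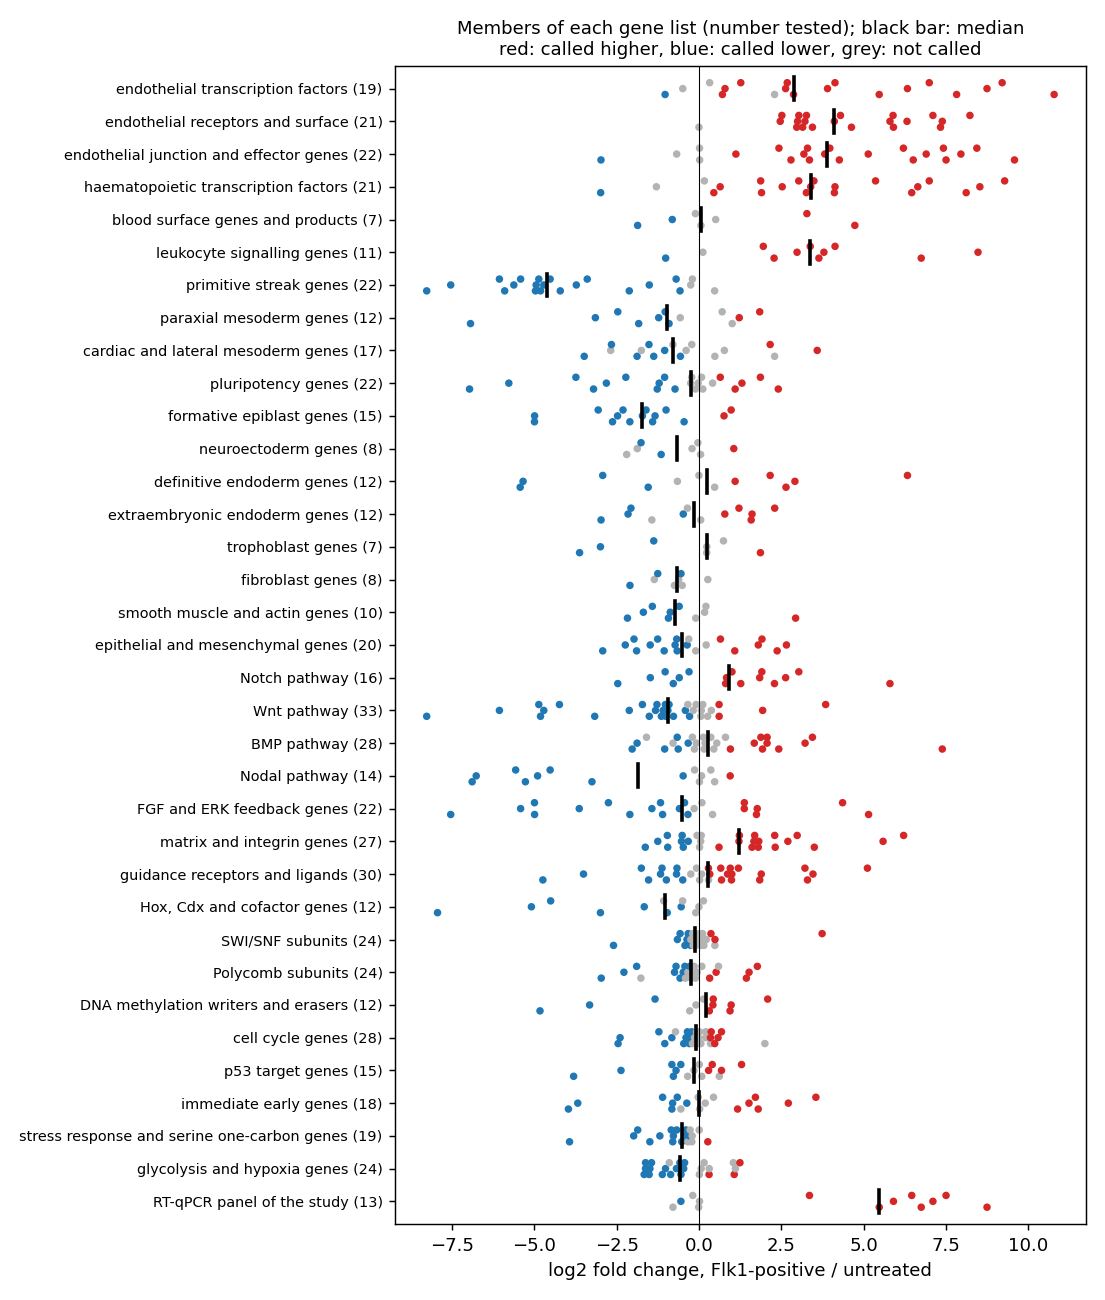
Log2 fold change (Flk1-positive over untreated) of every tested member of the gene lists, 1 row per list, in red where called higher, blue where called lower and grey where not called, with a black bar at the median. Members at 0 to 3 counts in a group are drawn at their bound or count ratio. The median is 4.11 for endothelial receptors, Kdr included, and -4.61 for primitive streak genes, against 0.01 over all genes tested.

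Markers of other cell types that embryoid bodies can hold gave mixed counts. Here and in the next paragraph, the counts stand beside 28.6% higher and 26.6% lower of all genes tested. Definitive endoderm genes had 5 higher and 4 lower of 12, with a median whose sign changed among alternatives. Sox17, shared by endoderm and endothelium, rose from 0.348 and 0.663 to 45.0 and 37.8 CPM (log2 fold change 6.33 ± 0.31), while Foxa2, a defining endoderm factor, fell from 24.5 and 28.8 to 0.496 and 0.848 CPM (log2 fold change -5.34 ± 0.36). Trh, which encodes thyrotropin-releasing hormone, fell from 782 and 749 to 18.4 and 17.1 CPM (log2 fold change -5.43 ± 0.11). Extraembryonic endoderm genes had 5 higher and 4 lower of 12, the latter 2 without Flk1-positive replicate 2 or untreated replicate 2, and the sign of the median again changed. Those higher included the basement membrane genes Col4a1 (1.22 ± 0.09), Col4a2 (1.61 ± 0.09) and Lama1 (2.30 ± 0.16), while the defining markers Afp and Ttr had 0 or 1 counts in each group. By over 2-fold, 4 members of this list were called higher and 1 lower, with log2 fold changes down to -2.97.

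Neuroectoderm genes had 1 higher and 2 lower of 8, among them the adhesion gene Ncam1, which fell by 1.76 ± 0.30, and Nes was not called (log2 fold change -0.21 ± 0.09, adjusted p = 0.052), although 13 of 21 alternatives, DESeq2 and limma-voom among them, called it lower. Trophoblast genes had 1 higher and 3 lower of 7, with Tfap2c (-3.62 ± 0.21) and Cdx2 (-2.99 ± 0.29) lower. The rise of Esx1 (1.87 ± 0.54) was no longer called without untreated replicate 2, and the fall of Hand1 (-1.37 ± 0.43) was lost without untreated replicate 1 or either Flk1-positive replicate, and with limma-voom. Fibroblast genes had 3 lower of 8 and none higher (5 lower with no filter or with trends removed), namely Pdgfrb, Thy1 and Col3a1, where the call of Thy1 (-0.54 ± 0.16) was lost without untreated replicate 2. Col3a1, with 0 counts against 14 and thus at least 4.27-fold lower, lost its call without either Flk1-positive replicate or untreated replicate 1. Smooth muscle and actin genes had 6 lower and 1 higher of 10 (none higher without Flk1-positive replicate 2 or either untreated replicate), with Cnn1, a calponin, falling from 44.9 and 47.5 to 10.1 and 10.4 CPM (log2 fold change -2.17 ± 0.12). The part of such cells in the differences above was not tested.

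Genes of cell shape and matrix moved in both directions. Of 20 epithelial and mesenchymal genes, 6 rose and 11 fell. Cdh1, which encodes E-cadherin, was at 392 and 393 CPM in Flk1-positive, 909 and 938 CPM in doxycycline-treated and 946 and 925 CPM in untreated libraries (log2 fold change -1.25 ± 0.09). The tight junction genes Cldn6 and Cldn7 fell (log2 fold changes -2.92 ± 0.12 and -1.89 ± 0.14), and Snai1, a repressor of E-cadherin, fell by 1.97 ± 0.11. Matrix and integrin genes rose in 15 and fell in 8 of 27 cases (median 1.22). Fn1, fibronectin, was at 2664 and 2898 CPM in Flk1-positive, 1570.0 and 1614 CPM in doxycycline-treated and 793 and 801 CPM in untreated libraries (log2 fold change 1.80 ± 0.12). Col5a2, a fibrillar collagen chain, rose from 0.392 and 0.373 to 19.6 and 17.7 CPM (log2 fold change 5.59 ± 0.29), and the integrin gene Itga9 by 2.32 ± 0.16. Lamb1 and Col18a1 were not called (0.05 ± 0.09 and 0.07 ± 0.09).

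Among signalling pathways, Notch genes had 10 higher and 6 lower of 16 (median 0.92). The receptor gene Notch1 was at 214 and 195 CPM in Flk1-positive, 110.3 and 114 CPM in doxycycline-treated and 42.0 and 41.4 CPM in untreated libraries (log2 fold change 2.29 ± 0.11), and the endothelial receptor gene Notch4 rose by 3.03 ± 0.22. Notch3, a receptor of mural cells, fell from 217 and 186 to 77.0 and 67.7 CPM (log2 fold change -1.48 ± 0.10). The target genes Hey1 and Nrarp rose by 2.63 ± 0.14 and 1.91 ± 0.10, where Nrarp shares 79.4% of its exon length with another gene.

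Wnt pathway genes had 21 lower and 4 higher of 33 (median -0.94). Frzb, a secreted Wnt inhibitor, was at 0.743 and 0.318 CPM in Flk1-positive, 4.59 and 2.92 CPM in doxycycline-treated and 38.6 and 35.8 CPM in untreated libraries (log2 fold change -6.06 ± 0.30). Lef1, a nuclear effector, fell from 123 and 129.9 to 40.8 and 36.2 CPM (log2 fold change -1.72 ± 0.11), while Lgr5, the R-spondin receptor, rose from 3.87 and 2.32 to 43.0 and 46.1 CPM (log2 fold change 3.85 ± 0.23). Ctnnb1, beta-catenin, was at 1017 and 1013 CPM against 1019.8 and 932 CPM untreated and was not called (log2 fold change 0.06 ± 0.08). Nodal pathway genes had 8 lower and 1 higher of 14 (median -1.86), and 2 were higher without untreated replicate 1 or either doxycycline replicate of day 2, with the 4 compared libraries alone, with total library sizes and with limma-voom. The ligand gene Nodal was at 3.92 and 3.66 CPM in Flk1-positive, 47.4 and 47.0 CPM in doxycycline-treated and 153 and 141 CPM in untreated libraries (log2 fold change -5.27 ± 0.13). Its co-receptor gene Tdgf1 (Cripto) fell from 621 and 692 to 21.7 and 22.3 CPM (log2 fold change -4.90 ± 0.10), and the related ligand Gdf3 fell by 5.56 ± 0.28. The intracellular effectors Smad2 and Foxh1 were not called (0.08 ± 0.11 and -0.13 ± 0.09).

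FGF ligands and receptors and the feedback genes of the ERK cascade fell in 13 and rose in 6 of 22 cases. By over 2-fold, 8 were called lower and 5 higher, and log2 fold changes in the list ran from -7.54 to 5.15. Fgf8, the streak ligand, was at 3.92 and 2.81 CPM in Flk1-positive, 33.4 and 27.3 CPM in doxycycline-treated and 133 and 159 CPM in untreated libraries (log2 fold change -5.41 ± 0.21), and Etv1, the remaining PEA3 factor, fell by 3.63 ± 0.15. BMP pathway genes had 10 higher and 6 lower of 28, beside 28.6% and 26.6% of all genes tested (median 0.28, or 0.10 without untreated replicate 2). By over 2-fold, 9 were called higher and 2 lower, and log2 fold changes in the list ran from -2.03 to 7.39. Msx2, given above with the lateral mesoderm genes, is among the fallers. Acvrl1, the endothelial BMP receptor ALK1, was at 22.8 and 21.7 CPM in Flk1-positive, 3.74 and 4.27 CPM in doxycycline-treated and 0.261 and 0 CPM in untreated libraries (log2 fold change 7.39 ± 0.44). Smad5, a transducer, rose by 1.68 ± 0.12, the pseudoreceptor Bambi by 2.07 ± 0.13 and the target Id4 by 2.42 ± 0.21, while the receptor gene Bmpr1a and the shared Smad4 were not called (0.14 ± 0.12 and -0.14 ± 0.09).

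Guidance receptors and ligands, which steer axons and vessels, rose in 15 and fell in 10 of 30 cases. Plxnd1, the endothelial semaphorin receptor, was at 439 and 367 CPM in Flk1-positive, 237 and 253 CPM in doxycycline-treated and 12.9 and 10.3 CPM in untreated libraries (log2 fold change 5.12 ± 0.14). Sema3f and the arterial ligand Efnb2 rose by 3.46 ± 0.13 and 1.89 ± 0.10, whereas Sema6a fell from 292 and 318 to 11.5 and 11.3 CPM (log2 fold change -4.74 ± 0.11) and Efna3 fell by 3.50 ± 0.17. Hox, Cdx and cofactor genes had 7 lower and none higher of 12, including Meis2 (-5.09 ± 0.23) and Hoxb1 (-4.50 ± 0.45), while Pbx2 was not called (0.00 ± 0.08).

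Chromatin complexes held both risers and fallers. Of 24 SWI/SNF subunits, 3 rose and 7 fell (28.6% and 26.6% of all genes tested), and 12 fell once trends with gene length and GC content were removed, while 5 rose with total library sizes. Smarca2, which encodes the ATPase BRM, was at 127 and 134 CPM in Flk1-positive, 106 and 109 CPM in doxycycline-treated and 8.79 and 10.6 CPM in untreated libraries (log2 fold change 3.74 ± 0.13). Smarca4, which encodes the alternative ATPase BRG1, was at 619 and 555 CPM in Flk1-positive, 675 and 696 CPM in doxycycline-treated and 660.3 and 676 CPM in untreated libraries (log2 fold change -0.19 ± 0.09, adjusted p = 0.084), and 8 of 21 alternatives called it lower. Between Flk1-positive and doxycycline-treated libraries the log2 difference of Smarca2 was 0.27 ± 0.11 (adjusted p = 0.061). Smarcc1 fell by 0.57 ± 0.12 and its paralog Smarcc2 rose by 0.49 ± 0.10, and Dpf1, a subunit known from neurons, fell by 2.59 ± 0.26.

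Polycomb subunits had 5 higher and 9 lower of 24 (28.6% and 26.6% of all genes tested), the latter 15 once trends with length and GC content were removed. Phc1, a subunit of the PRC1 complex high in pluripotent cells, fell from 740.1 and 797 to 165 and 152 CPM (log2 fold change -2.28 ± 0.10), and Ezh1, the alternative methyltransferase of PRC2, rose from 38.6 and 36.4 to 103 and 101 CPM (log2 fold change 1.44 ± 0.11). Phf1 rose by 1.77 ± 0.22, with 39.3% of its exon length shared with another gene, and Suz12, a core PRC2 subunit, was not called (log2 fold change -0.05 ± 0.10). Among 12 DNA methylation writers and erasers 6 rose and 3 fell, or 5 with trends removed and a replicate block together, then with Tet1 and Uhrf1. Dnmt3b, a de novo methyltransferase of the epiblast, was at 844 and 829 CPM in Flk1-positive, 1152 and 1152 CPM in doxycycline-treated and 2195 and 2017 CPM in untreated libraries (log2 fold change -1.33 ± 0.08). Its partner Dnmt3l fell by 3.32 ± 0.22, while the other de novo enzyme gene Dnmt3a rose from 316 and 309 to 619.7 and 611 CPM (log2 fold change 0.98 ± 0.08) and Tet2 by 2.09 ± 0.19.

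Cell cycle genes had 5 higher and 11 lower of 28, which became 8 and 7 with total library sizes; 7 were lower without untreated replicate 2, and 8 were higher without either doxycycline replicate of day 2. The cyclin genes Ccnd1 and Ccnd2 fell from 309 and 302 to 133 and 129.8 CPM (log2 fold change -1.22 ± 0.08) and from 70.5 and 65.2 to 11.5 and 14.4 CPM (log2 fold change -2.39 ± 0.13). Their kinase gene Cdk6 fell by 2.45 ± 0.16, whereas Cdk4 and the proliferation marker Mki67 were not called (-0.07 ± 0.10 and 0.35 ± 0.15). The adjusted p of Mki67 was 0.062, and 9 of 21 alternatives, DESeq2 among them, called it higher. Of 15 p53 target genes, 4 rose and 6 fell, the former 2 without Flk1-positive replicate 2 or untreated replicate 1. The pro-apoptotic Pmaip1 (Noxa) fell by 3.80 ± 0.17, and the cycle inhibitor Cdkn1a rose by 0.69 ± 0.10. Immediate early genes, which respond within minutes to signals and to handling of cells, had 6 higher and 7 lower of 18, with a median whose sign changed among alternatives. Egr1 fell from 48.3 and 55.5 to 4.01 and 2.54 CPM (log2 fold change -3.96 ± 0.19) while Egr2 rose from 2.05 and 1.49 to 22.1 and 19.3 CPM (log2 fold change 3.55 ± 0.28), and Atf3 rose by 2.72 ± 0.18, Jun by 1.18 ± 0.13. Myc fell by 1.10 ± 0.09. The counts of the cell cycle, p53 target and immediate early lists stand beside 28.6% higher and 26.6% lower of all genes tested.

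Metabolic genes were lower in most called cases. Of 24 glycolysis and hypoxia genes, 14 fell and 3 rose (median -0.56), with 5 rising under total library sizes. Slc2a1, the glucose transporter GLUT1, was at 100.1 and 89.4 CPM in Flk1-positive, 145 and 157 CPM in doxycycline-treated and 329 and 271 CPM in untreated libraries (log2 fold change -1.66 ± 0.11). Hk2, hexokinase, fell by 1.51 ± 0.08, Tpi1 fell by 1.49 ± 0.10 and Ldha, lactate dehydrogenase, fell by 1.44 ± 0.09, while Hk1 and Gapdh were not called (0.16 ± 0.10 and 0.01 ± 0.11), Hk1 being called higher with total library sizes. Genes of the stress response and of serine-derived one-carbon metabolism fell in 13 and rose in 1 of 19 cases, the riser losing its call without any of the 4 compared libraries. Mthfd2, a mitochondrial folate enzyme, fell from 73.8 and 71.4 to 24.0 and 27.8 CPM (log2 fold change -1.49 ± 0.11), Psat1, of serine synthesis, fell by 1.19 ± 0.09 and the stress gene Trib3 fell by 1.86 ± 0.20.

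The genes probed by the study's own RT-qPCR panel were chosen by its authors, so their direction here is not independent evidence. Of 11 tested, leaving out the induced Etv2 and the selected Kdr, 6 rose and 1 fell (3 without Flk1-positive replicate 1 or with no filter), and Chd8, a chromatin remodeller, was not called (log2 fold change -0.01 ± 0.11), except as lower with trends removed and a replicate block together.

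Ranked by the difference in mean CPM, which grows with transcript length as well as level, the largest gains were Fn1, Amot, Igfbp4, Kdr, Apoe, Tjp1, F2r, Mapre2, Mest and Arrb1. Igfbp4, a secreted binding protein for insulin-like growth factors, was at 1079.7 and 994 CPM in Flk1-positive, 569.9 and 634 CPM in doxycycline-treated and 27.1 and 31.99 CPM in untreated libraries (log2 fold change 5.13 ± 0.11). Amot, angiomotin, a regulator of Hippo signalling and cell migration, was at 1299.8 and 1348 CPM in Flk1-positive, 786 and 783 CPM in doxycycline-treated and 254 and 227 CPM in untreated libraries (log2 fold change 2.46 ± 0.14). F2r, the thrombin receptor, rose from 79.7 and 75.6 to 911 and 869 CPM (log2 fold change 3.52 ± 0.09). Mest, an imprinted mesoderm gene, rose by 3.07 ± 0.09, Arrb1, beta-arrestin 1, by 2.58 ± 0.11 and Tjp1, of tight junctions, by 1.71 ± 0.19. Apoe, apolipoprotein E, and Mapre2, a microtubule end-binding protein, rose by 1.59 ± 0.11 and 2.47 ± 0.10, and against doxycycline-treated samples their log2 differences were -0.04 ± 0.10 and -0.08 ± 0.09 (adjusted p = 0.80 and 0.49).

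The largest losses in CPM were Hsp90ab1, Ncl, Pkm2, Eef2, Serbp1, Pabpc1, Dnmt3b, Eomes, Pim2 and Nasp. Several are abundant genes of protein synthesis and folding with small folds. The chaperone gene Hsp90ab1 was at 7510.0 and 8305 CPM in Flk1-positive, 12289.5 and 12966 CPM in doxycycline-treated and 11142 and 12492 CPM in untreated libraries (log2 fold change -0.58 ± 0.08). Ncl, nucleolin, fell by 0.94 ± 0.10, the pyruvate kinase gene Pkm2 fell by 1.11 ± 0.08, the RNA-binding Serbp1 fell by 1.22 ± 0.09, Pabpc1 fell by 0.68 ± 0.11, the elongation factor gene Eef2 fell by 0.46 ± 0.08 and the histone chaperone gene Nasp fell by 0.82 ± 0.12. Pim2, a kinase that promotes growth and survival, stood out in fold, at 70.0 and 63.6 CPM in Flk1-positive, 328 and 307 CPM in doxycycline-treated and 1266 and 1178 CPM in untreated libraries (log2 fold change -4.19 ± 0.10, adjusted p = 5.9e-14).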

How the data were processed

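Bulk RNA was sequenced from iHA-Etv2 embryoid bodies in 10 libraries of 5 groups. The authors deposited raw counts per gene. The submitters' processing notes name mm10, TopHat, HTSeq and DESeq2, without versions or roles. The gene annotation and the strand setting were not given in the sources used here. Genes that overlap, lie antisense or are near-identical therefore cannot be told apart. The table has 23429 rows, of which 92 spike-in rows had 0 counts and were left out and 4811 rows had 0 counts in every library.

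Counts were analysed with edgeR 4.0.16 in R 4.3.3. After filterByExpr (minimum count 10, minimum total 15) and TMM scaling, all 10 libraries entered a single robust quasi-likelihood fit of 5 group means (5 residual degrees of freedom, common biological coefficient of variation 0.100). All p-values are two-sided and adjusted by Benjamini-Hochberg over 14548 genes, with a threshold of 0.05; glmTreat tested against 2-fold. SE comes from the F statistic. Comparisons among the day 2.5 groups share libraries, so their values are only set side by side.

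The contrast and the 35 gene lists were chosen with earlier results of these data known, and lists are described by counts and medians, without set tests. Of 630 different list genes, 564 were tested, and 7 were matched by an older symbol. Named genes were Etv2 and Kdr, the 10 largest rises and falls by log2 fold change and by CPM difference (called, at least 5 CPM in the higher group, libraries not overlapping, named symbol), up to 5 called members per list by adjusted p and up to 2 members not called by level; others were chosen after their values were seen. Some genes that the rule names are not reported here. The motifs in promoters were searched in RefSeq windows, and coordinates are from GENCODE M21. In simulated data over 14241 genes, 200 genes were changed in the Flk1-positive group only, against 8040 called in the real comparison. Of those changed 1.5-, 2- and 4-fold, 56.1%, 79.1% and 85.9% were recovered, and 5.23% of calls were false. Trends with GC content and gene length were not simulated, so these rates need not hold for the real calls. Alternatives used DESeq2 1.42.0, limma 3.58.1, other scalings, no filter, thinned counts, trend removal, a replicate block, the 4 compared libraries alone, and each library left out in turn.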

Additional observations from a re-analysis of the deposited data

How the results depend on the processing

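Under 21 alternatives the counts of genes higher (4167) and lower (3873), and higher (1159) and lower (731) by over 2-fold, stayed within 1.5 times, and no called gene named in the text reversed. With 1 library left out in turn they ran from 3184 to 4751, 3165 to 4480, 886 to 1288 and 590 to 802; where this left a group with 1 library, it was assumed to vary like the others. DESeq2 gave 4036 higher and 3921 lower genes, and 852 and 543 by over 2-fold. Total library sizes gave 4778 and 3242, and 59.6% of calls higher against 51.8%. Of 177 named genes called, 173 kept the call in every alternative; the others are Esx1, Hand1, Thy1 and Col3a1. Of the named genes not called, 23 were called in at least 1 alternative. Of 70 list counts, 53 stayed within 1.5 times; the cause of the other shifts was not tested.

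The labels do not say that replicate numbers pair libraries. Deviations of same-numbered libraries correlated at no more than 0.098 between any groups, and at 0.019 for the compared groups. Counting error and trends of single libraries also enter these correlations, so they cannot show whether cultures were shared. With a replicate block, 4199 genes were higher and 3947 lower, 1154 and 726 by over 2-fold; with the block and trends in length and GC content removed, 4251, 4500, 1159 and 797. In the labels, only the number links these libraries across groups. With 2 libraries per group, small changes are limited by the spread, and genes of low count by depth.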

Other observations

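Gene families outside the lists were described in the same contrast by their counts and medians, without a test of the family. Here and below, the counts of each family stand beside 28.6% higher and 26.6% lower of all genes tested. Small nucleolar RNA rows, which guide chemical modification of ribosomal RNA, were higher in 44 of 69 tested rows and lower in none, with a median log2 fold change of 1.72. The count was 28 without Flk1-positive replicate 2 or untreated replicate 1, and 1 row was lower without Flk1-positive replicate 1. Their summed level was 278 and 299 CPM in the Flk1-positive, 69.5 and 85.3 CPM in the doxycycline-treated and 83.7 and 102 CPM in the untreated libraries. Once trends with gene length and GC content were removed, 12 rows were higher and 4 lower, with a median of 0.37. MicroRNA rows had 11 higher and 2 lower of 22, 3 and 7 after the same removal, and 5 and 1 of 29 without Flk1-positive replicate 1. Both kinds of row are short, and reads in them can come from the host transcript.

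Genes for mitochondrial ribosomal proteins were lower in 40 and higher in 1 of 73 cases (median -0.39, between -0.44 and -0.29 over all alternatives). Proteasome genes were lower in 29 of 43 and higher in none, or in 2 without either doxycycline replicate of day 2 (median -0.37, between -0.41 and -0.28). Cytosolic ribosomal protein genes had 28 higher and 16 lower of 93, beside 28.6% and 26.6% of all genes tested, with 16 and 15 without Flk1-positive replicate 1. Their summed level was 14490.3 and 15345 CPM in Flk1-positive, 14145 and 14619.7 CPM in doxycycline-treated and 15624 and 15874 CPM in untreated libraries.

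Interferon-inducible GTPases of the Gbp and Irg families, which act against intracellular microbes, were picked out after their values were seen. Of 10 tested, 9 were lower and none was higher, beside 26.6% lower and 28.6% higher of all genes tested. With limma-voom or total library sizes, 8 were lower. The median log2 fold change was -3.66, and it lay between -4.33 and -1.39 over all alternatives, the latter with no filter. Gbp3 and Gbp7, at means of 2.03 and 1.94 CPM untreated, were called at adjusted p = 0.044 and 0.030 (edgeR). Irgm1 was at 1.24 and 3.23 CPM in Flk1-positive, 6.76 and 5.78 CPM in doxycycline-treated and 24.0 and 17.6 CPM in untreated libraries (log2 fold change -3.27 ± 0.30). Igtp fell from 7.18 and 5.06 to 0.0413 and 0.371 CPM (log2 fold change -4.98 ± 0.55) and Irgm2 from 10.01 and 7.33 to 0.372 and 0.689 CPM (log2 fold change -4.06 ± 0.37). Gbp1 and Gbp2 had nearly the same values, 10.6 and 10.2 mean CPM untreated, and may share reads. Gbp9 was the member not called (log2 fold change 0.34 ± 0.51, adjusted p = 0.60).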
